A study of Homo sapiens with 6 samples.

Results

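Ribosome biogenesis genes encode the factors that transcribe ribosomal RNA in the nucleolus, trim and modify it, and assemble it with ribosomal proteins into the small (40S) and large (60S) subunits. The 40 genes described here were taken by symbol: subunits and factors of RNA polymerase I, the protein cores of the small nucleolar ribonucleoproteins (snoRNPs), components of the small subunit processome, late 40S factors, 60S assembly factors and abundant nucleolar proteins. All 40 were found among the 58676 genes of the deposited table, and 39 passed the filter on low values, which left 15408 genes by asking for a level of at least 0.5 RPKM in any 3 libraries. RPKM is a read number divided by exon length and by library size, so levels are per length and can be compared between genes. NOP2 alone did not pass.

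Total RNA of an unnamed human cell line labelled HCC, grown in DMEM with fetal bovine serum, was sequenced in 6 libraries. The labels call 3 of them control (titled 238) and 3 knockdown (titled sponge). In this field a sponge is a transcript that takes up a microRNA by its binding sites. The series title speaks of treatment with miR-19a and the sample labels of knockdown, so the direction of the change in miR-19a cannot be told from them. They give neither the dose, time or vector nor whether replicates came from separate cultures, so the p-values reflect a spread among libraries that may be technical only. Knockdown replicate 2 was left out of every value below because its column does not follow the gene IDs. Its rank correlation with the other libraries was 0.0173 to 0.0191 across genes, against 0.822 to 0.887 among the others. This leaves 3 control and 2 knockdown libraries.

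The 5 libraries held 1948940 (control replicate 2) to 19605312 (control replicate 3) assigned reads. The tested members rested on a median of 108 reads in control replicate 2 and 1480 in control replicate 3, and the lowest tested member on 25 reads. All 11 hepatocyte markers passed the filter, with ALB at 652 to 951 RPKM. Summed, they came to 2836 to 3315 RPKM among controls and to 2987 to 3301 RPKM among knockdown libraries. Taken singly, 8 of the 11 overlapped between groups. Both knockdown libraries lay below all controls for APOB, at 0.554 times the control mean, against 13.6% of all genes. They lay above all controls for SERPINA1 (1.45 times) and GPC3 (1.28 times), against 14.3% of all genes. Of the markers of other cells, 2 of 5 blood and immune, 4 of 5 fibroblast and 1 of 4 endothelial genes passed the filter. Their summed levels were 32.4 to 41.9, 63.1 to 83.1 and 0.523 to 0.760 RPKM in control and 36.8 to 43.0, 68.1 to 72.0 and 0.388 to 0.406 RPKM in knockdown. HBB and KDR were listed at 0 in all 5 libraries and the part of these cells in the results was not tested.

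Ribosomal RNA synthesis begins when UBTF and RRN3 bring RNA polymerase I to the ribosomal DNA. The nascent transcript is bound by the small subunit processome, modified by box C/D snoRNPs (methylation, by FBL) and box H/ACA snoRNPs (pseudouridylation, by DKC1), and cleaved into the precursors of both subunits. Many of these genes are direct targets of MYC, which binds the E-box CACGTG. A microRNA such as miR-19 acts on transcripts that hold a match to its seed, usually in the 3' UTR.

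The mature miR-19a-3p and the sites of the members show how few of these genes carry its match. Both mature miR-19 strands below (RefSeq, GRCh38.p14) share the seed, bases 2 to 8 from the 5′ end, in capitals. Searched on the transcript strand of the longest annotated 3' UTR (GENCODE release 29), the 7 bases TTTGCAC that pair with this seed occurred in 3 of 40 members (7.50%), against 15.3% of 11767 tested genes with a 3' UTR. The median 3' UTR was 841 bases in the members and 1327 bases in tested genes. The sites lie in POLR1A, which holds a pair of them, in DKC1 and in HEATR1, and none is followed by the A of the longer 8-base site. In the 4 windows the capitals mark the match.
hsa-miR-19a-3p: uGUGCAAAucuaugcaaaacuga
hsa-miR-19b-3p: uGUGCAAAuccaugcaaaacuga
POLR1A, chr2:86025109-86025138, minus strand: tgagatgcactTTTGCACttgttacccagg
POLR1A, chr2:86023401-86023430, minus strand: aaaatttttagTTTGCACctgaatcagggg
DKC1, chrX:154777404-154777433, plus strand: gaggtcagtccTTTGCACttcctcaaagct
HEATR1, chr1:236550552-236550581, minus strand: ctgacgcctcaTTTGCACtgtaagccttaa

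The E-box was a common letter sequence at the starts of these genes. Promoter windows (RefSeq, GRCh38.p14, 250 bases before to 50 after a start) were matched for 34 of the 40 members, and not for BOP1, NOLC1, NOP58, POLR1E, RRP12 and RRS1. CACGTG, which reads the same on both strands, occurred in a window of 15 of the 34 (44.1%), against 12.8% of 9777 tested genes matched the same way. By window, 16 of 42 member windows (38.1%) held it, against 7.26% of all 35116 windows of the table. The first base of the motif lay within 40 bases of the start in 14 of the 16 matches. A match of letters is a description and not evidence of binding. Windows are shown for tested members whose knockdown libraries both lay below all controls, and last for FBL, where both lay above them. The motif also occurred in EBNA1BP2, GAR1, GNL3, LTV1, NOP14, PES1 and RRP9, whose groups overlapped and whose windows are not shown. The capitals mark the motif.
UTP20, chr12:101280083-101280112, plus strand: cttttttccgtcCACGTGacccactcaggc
NOL6, chr9:33473894-33473923, minus strand: ggcatttccgccCACGTGggaagctatgag
UTP4, chr16:69132621-69132650, plus strand: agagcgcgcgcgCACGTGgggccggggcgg
WDR43, chr2:28894658-28894687, plus strand: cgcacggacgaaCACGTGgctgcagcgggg
BYSL, chr6:41921515-41921544, plus strand: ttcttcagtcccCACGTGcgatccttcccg
DDX21, chr10:68956604-68956633, plus strand: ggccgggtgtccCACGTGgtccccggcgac
FBL, chr19:39846356-39846385, minus strand: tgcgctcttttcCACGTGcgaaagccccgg

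Knockdown was compared with control to ask how the messenger RNAs of this pathway differed between the label groups. Most members were at lower levels in the knockdown libraries, by modest amounts, and none passed the test across all genes. Of the 39 tested members, 34 had a log2 difference (knockdown minus control) below 0, against 50% of all genes tested, with a median of -0.26 against 0.00. The members were chosen with earlier results of these data known, so comparisons with all genes describe the list and are not independent evidence. The small subunit processome held the lowest values, led by UTP20 and HEATR1. FBL, the methyltransferase of box C/D snoRNPs, went the other way, at 1.56 times its control mean. In bulk RNA, fewer cells of a type and less RNA per cell cannot be told apart.

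**Figure D1:**
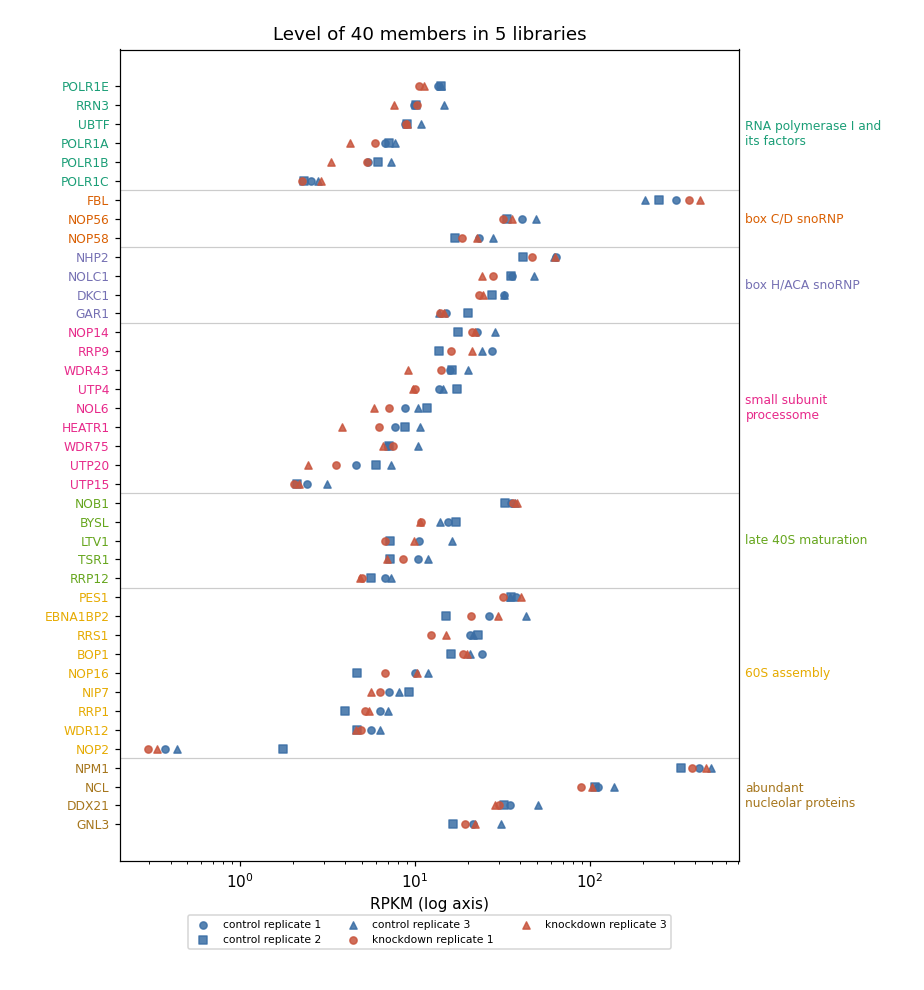
RPKM (horizontal log axis) of the 40 members in 3 control (blue) and 2 knockdown (red) libraries, grouped by role and ordered by control mean. Levels run from NOP2, under 1 RPKM in 4 of 5 libraries, to NPM1 at 330 to 492 RPKM, and FBL shows both red points to the right of all blue ones.

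Limma on log2(RPKM + 0.5) called 0 of 15408 genes at an adjusted p under 0.05 (0% of genes), with 392 lower and 585 higher at an unadjusted p under 0.05. On reads recovered from the RPKM values, limma voom also called 0 genes, and voom with sample weights called 4, of which 0 were members. At an unadjusted p under 0.05, 7 of 39 members (17.9%) were lower against 2.54% of all genes, and 1 was higher (FBL) against 3.8%. Both knockdown libraries lay below all 3 controls in 16 members (41.0%), against 13.6% of all genes, and above them in 1 member against 14.3%. The 7 lower members were UTP20, HEATR1, RRS1, NOL6, NOLC1, UTP4 and BYSL. The count of 7 was 11 without control replicate 2, where 4.02% of all genes were lower, and 1 without knockdown replicate 3, where 0.437% were. The median was -0.13 without control replicate 3, where 27 of 39 members were below 0 and the median of all genes was 0.05.

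**Figure D2:**
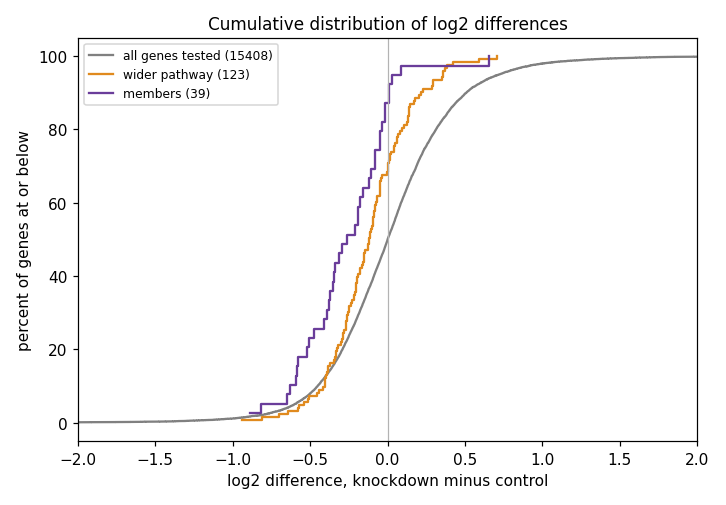
Percent of genes (vertical axis) at or below each log2 difference, knockdown minus control (horizontal axis), for 39 members, 123 other genes of the pathway and 15408 genes tested. The curve of the members lies to the left, crossing 0 at 34 of 39 genes, and the wider pathway lies between it and all genes.

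Control replicate 3 carried the highest level of most members. It was the highest of the 5 libraries for 24 of 39 members, and knockdown replicate 1 for 0. Knockdown replicate 3 was the lowest for 16 members, control replicate 2 for 11 and knockdown replicate 1 for 9. With each gene set to its mean over the 5 libraries, the median member stood at 0.10, -0.09 and 0.31 in control replicates 1, 2 and 3. It stood at -0.17 and -0.09 in knockdown replicates 1 and 3. Control replicate 2, the shallowest library, was therefore at nearly the same place as knockdown replicate 3. Over all genes tested the medians were 0.00, -0.11 and 0.12 in control and 0.01 and 0.00 in knockdown, so control replicate 3 was also the highest library for genes at large. Mitochondrial reads made up 7.40%, 10.4% and 4.94% of assigned reads in control replicates 1, 2 and 3 and 8.30% and 7.83% in knockdown replicates 1 and 3. Their share was thus lowest in control replicate 3, where the members stood highest, and its part in these levels was not tested.

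**Figure D3:**
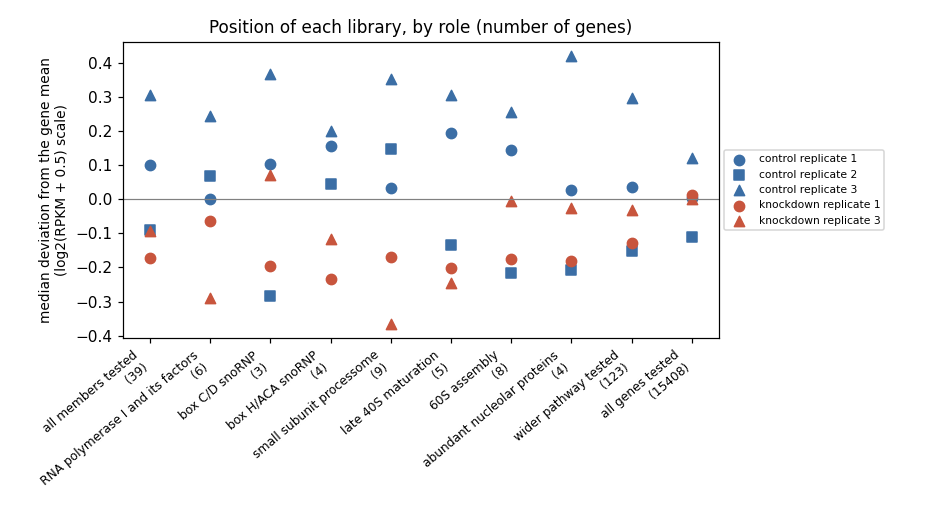
Median deviation of each library from the gene means on the log2(RPKM + 0.5) scale (vertical axis), for all tested members, each role, the wider pathway and all genes (number of genes in brackets). Both knockdown libraries (red) lie below all controls (blue) for RNA polymerase I, box H/ACA, small subunit processome and late 40S members, while control replicate 2 (blue square) lies below both of them for box C/D, 60S and abundant members.

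Of the 6 RNA polymerase I genes, 5 had a difference below 0, with a median of -0.35. In 3 of the 6, both knockdown libraries lay below all controls, against 13.6% of all genes. The median was -0.18 without knockdown replicate 3. None had an unadjusted p under 0.05 in limma. POLR1E, a subunit that takes part in initiation, was at 13.6, 14.1 and 14.1 RPKM in control and 10.6 and 11.2 RPKM in knockdown. These groups are well apart, with SDs of 0.296 (n = 3) and 0.448 (n = 2), for a log2 difference of -0.34 (SE 0.14, limma unadjusted p = 0.0509, adjusted p = 0.71). POLR1A, the largest and catalytic subunit, was at 6.73, 7.14 and 7.66 RPKM in control and 5.88 and 4.26 RPKM in knockdown, a log2 difference of -0.48 (SE 0.19, limma unadjusted p = 0.0514, adjusted p = 0.71). Knockdown replicate 3 was the lower of the pair, and the difference was -0.26 without it. POLR1A is the member with the pair of miR-19 matches shown above.

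POLR1B, the other large subunit of the active centre, was at 5.37, 6.16 and 7.29 RPKM in control and 5.29 and 3.30 RPKM in knockdown. Knockdown replicate 1 lay just under the lowest control here, and the log2 difference of -0.52 (SE 0.25, limma unadjusted p = 0.0866) was -0.22 without knockdown replicate 3. RRN3, which carries the polymerase to the promoter, was at 9.91, 10.1 and 14.6 RPKM in control and 10.2 and 7.55 RPKM in knockdown, and the groups overlapped. Reads of RRN3 are uncertain, since 2 pseudogenes named after it held reads equal to 10.2% to 29.3% of its own. UBTF, the factor that opens ribosomal DNA for transcription, was at 8.72 to 10.8 RPKM in control and 8.92 and 8.96 RPKM in knockdown. POLR1C, which is also a subunit of RNA polymerase III, was at 2.31 to 2.80 RPKM in control and 2.27 and 2.89 RPKM in knockdown, a log2 difference of 0.01 (SE 0.20).

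Of the 3 box C/D snoRNP members, 1 lay above 0 and 2 below it. Their median of -0.11 was -0.30 to 0.057 when each library was left out. FBL, on chromosome 19 between 39834458 and 39846414 (GRCh38, minus strand), had levels of 311, 248 and 206 RPKM in control and 369 and 426 RPKM in knockdown. Both knockdown libraries lay above all controls, with means of 255 ± 53.2 RPKM (SD, n = 3) and 398 ± 40.4 RPKM (SD, n = 2). The log2 difference was 0.66 (SE 0.24), with an unadjusted p of 0.0361 and an adjusted p of 0.71 in limma. It stayed between 0.51 and 0.81 when each library was left out. In limma, FBL no longer had an unadjusted p under 0.05 without control replicate 2 or control replicate 3. The same held with trimmed mean, median ratio or quantile scaling, without a filter and with the replicate block. Fits without a knockdown library have no spread in that group. There FBL differed by 0.76 without knockdown replicate 1 and by 0.55 without knockdown replicate 3. Its partner NOP56 was at 40.8, 33.5 and 49.1 RPKM in control and 31.8 and 35.97 RPKM in knockdown, a log2 difference of -0.26 (SE 0.20). NOP58, the other partner, was at 23.1, 16.8 and 27.8 RPKM in control and 18.7 and 22.5 RPKM in knockdown, which gives -0.11 (SE 0.25) on the log2 scale. For both partners the groups overlapped.

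Ratios of levels within a library do not depend on its scaling. The ratio of FBL to NOP56 was 7.63, 7.41 and 4.19 in control and 11.6 and 11.8 in knockdown, with the lowest value in control replicate 3. The exact two-sided permutation p over the 10 possible labellings was 0.1, the smallest they can give, and 0.275 after Benjamini-Hochberg adjustment over the 11 ratios computed. The 11 ratios were chosen after values were seen. The ratio of FBL to NOP58 was 13.5, 14.8 and 7.40 in control and 19.8 and 18.9 in knockdown, with separate groups and an exact permutation p of 0.2 (adjusted 0.367). For NCL to NPM1, the most abundant nucleolar pair beside FBL, the ratio was 0.264, 0.323 and 0.277 in control and 0.234 and 0.225 in knockdown (exact permutation p = 0.1, adjusted 0.275). PES1 to BOP1, partners in a 60S complex, overlapped between groups at 1.57 to 2.21 in control and 1.69 and 2.03 in knockdown.

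**Figure D4:**
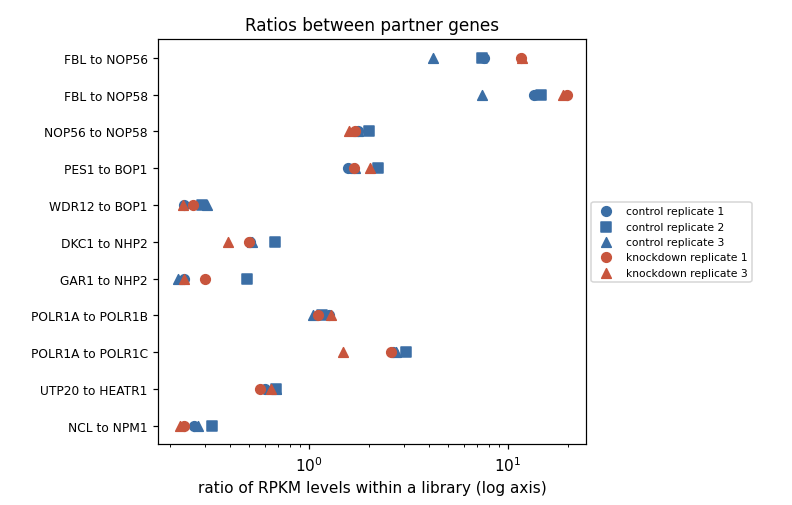
Ratio of RPKM levels between partner genes within each library (horizontal log axis) for 11 pairs in 3 control (blue) and 2 knockdown (red) libraries. FBL to NOP56 and FBL to NOP58 have both red points above all blue ones, while the PES1 to BOP1 points are mixed.

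All 4 box H/ACA members had differences below 0, with a median of -0.25. NOLC1, a chaperone of snoRNPs in the nucleolus and Cajal bodies, was at 35.7, 35.5 and 47.7 RPKM in control and 27.8 and 24.0 RPKM in knockdown. Control replicate 3 was highest, both knockdown libraries lay below all controls, and the log2 difference was -0.59 (SE 0.19, limma unadjusted p = 0.0248, adjusted p = 0.71). DKC1, the pseudouridine synthase that is mutated in X-linked dyskeratosis congenita, was at 32.2, 27.6 and 32.1 RPKM in control and 23.3 and 24.6 RPKM in knockdown. Its groups were also separate, with a log2 difference of -0.35 (SE 0.15, limma unadjusted p = 0.0624). GAR1 and NHP2, structural proteins of the same particle, overlapped between groups, at log2 differences of -0.16 (SE 0.20) and -0.02 (SE 0.26).

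The small subunit processome had the lowest median of the 7 roles, at -0.58 over 9 members, and at -0.38 without knockdown replicate 3. The late 40S members were then close to it, at -0.35. Without control replicate 2 the medians of these roles were -0.49 and -0.47. The 34 further processome genes tested had a median of -0.14. All 9 members were below 0, against 50% of all genes tested. In limma, 4 of them were lower at an unadjusted p under 0.05, against 2.54% of all genes. In 5, both knockdown libraries lay below all controls, against 13.6% of all genes. UTP20, a very large HEAT-repeat scaffold (chromosome 12 from 101280109 to 101386616), was at 4.57, 5.99 and 7.27 RPKM in control and 3.51 and 2.44 RPKM in knockdown. The means were 5.94 ± 1.35 RPKM (SD, n = 3) and 2.97 ± 0.759 RPKM (SD, n = 2), and the log2 difference was -0.89 (SE 0.26, limma unadjusted p = 0.0163, adjusted p = 0.71). HEATR1, the scaffold of the UTP-A complex that loads first on the nascent transcript (chromosome 1 from 236549005 to 236604504), was at 7.65, 8.79 and 10.6 RPKM in control and 6.21 and 3.80 RPKM in knockdown. The log2 difference was -0.82 (SE 0.26, limma unadjusted p = 0.0223, adjusted p = 0.71), and -0.49 without knockdown replicate 3, the lowest library for both genes.

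The next 3 members belong to the same early particle. UTP4, a UTP-A component, was at 13.7, 17.3 and 14.4 RPKM in control and 9.98 and 9.75 RPKM in knockdown, so that the knockdown pair was close together and clear of the controls. Its log2 difference of -0.59 (SE 0.16, limma unadjusted p = 0.0139) stayed between -0.65 and -0.49 when each library was left out. NOL6, of the UTP-C complex, was at 8.70, 11.7 and 10.5 RPKM in control and 7.07 and 5.85 RPKM in knockdown, with a log2 difference of -0.63 (SE 0.19, limma unadjusted p = 0.0194). WDR43, also of UTP-A, was at 15.8, 16.3 and 19.98 RPKM in control and 14.1 and 9.16 RPKM in knockdown. Its knockdown pair was widely spread, and the difference of -0.58 (SE 0.23) was -0.28 without knockdown replicate 3.

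The remaining processome members overlapped between groups. UTP15 and WDR75, which share UTP-A with HEATR1, differed by -0.21 (SE 0.22) and -0.19 (SE 0.23). RRP9, a protein of the U3 snoRNP that guides early cleavage, was at 27.5, 13.7 and 24.0 RPKM in control and 16.0 and 21.1 RPKM in knockdown, with control replicate 2 the lowest of all. NOP14, another processome factor, was at 17.7 to 28.4 RPKM in control and 21.2 and 22.1 RPKM in knockdown, a log2 difference of -0.05 (SE 0.23).

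**Figure D5:**
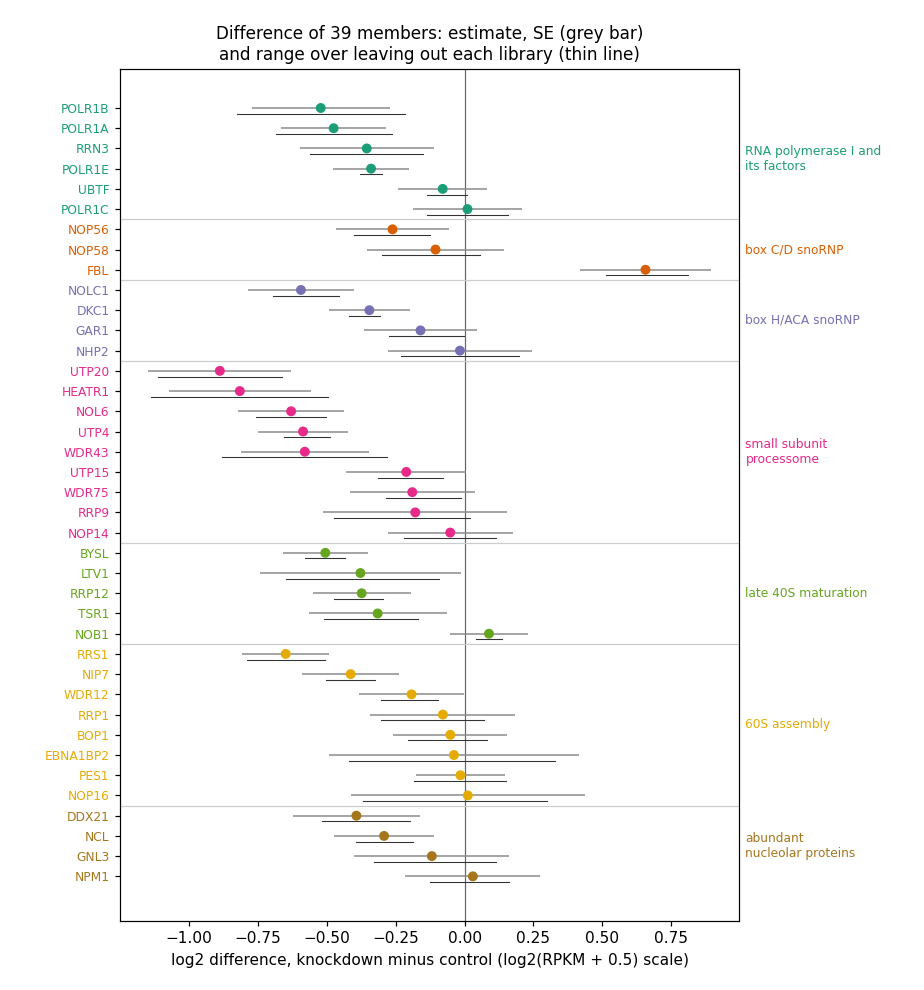
Log2 difference, knockdown minus control, of the 39 tested members (points, coloured by role), with the SE (grey bar) and the range over leaving out each of the 5 libraries (thin line). UTP20 at -0.89 and HEATR1 at -0.82 lie farthest left, FBL at 0.66 farthest right, and the thin line crosses 0 for 13 members.

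Among the 5 late 40S factors the median was -0.37, and -0.17 without control replicate 3, and 4 were below 0. BYSL, which helps the pre-40S particle to mature, was at 15.4, 17.1 and 13.9 RPKM in control and 10.8 and 10.6 RPKM in knockdown. The groups were separate and the log2 difference was -0.51 (SE 0.16, limma unadjusted p = 0.0198, adjusted p = 0.71). RRP12, an export factor of pre-ribosomes, was at 6.74, 5.59 and 7.32 RPKM in control and 4.99 and 4.84 RPKM in knockdown, a log2 difference of -0.37 (SE 0.18). TSR1 and LTV1, which keep immature 40S particles from translating, overlapped between groups at -0.32 (SE 0.25) and -0.38 (SE 0.36). Without control replicate 3 they stood at -0.17 and -0.094, and the lowest values on leaving out a library were -0.51 and -0.65. NOB1, the nuclease that makes the final cut of 18S ribosomal RNA, was at 32.7 to 37.4 RPKM in control and 36.5 and 38.0 RPKM in knockdown, or 0.09 (SE 0.14) as a log2 difference.

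The 8 tested 60S factors had a median of -0.07, and 7 were below 0. This median moved with each library left out: it was -0.31 without control replicate 2, the shallowest library, -0.23 without knockdown replicate 3 and -0.033 to -0.015 without each of the others. RRS1, which helps to place the 5S ribonucleoprotein, was at 20.7, 22.9 and 21.4 RPKM in control and 12.3 and 15.1 RPKM in knockdown. The controls agreed closely (SD 1.10, n = 3), both knockdown libraries were far below them, and RRS1 had the lowest unadjusted p of the members (0.00748 in limma, adjusted p = 0.71) at a log2 difference of -0.65 (SE 0.16). NIP7, which acts in pre-ribosomal RNA processing, was at 7.09, 9.18 and 8.07 RPKM in control and 6.27 and 5.61 RPKM in knockdown, which gives -0.41 (SE 0.18) on the log2 scale. The 3 proteins of the PES1, BOP1 and WDR12 complex, which 28S maturation needs, differed by -0.02 (SE 0.16), -0.05 (SE 0.21) and -0.19 (SE 0.19). Their groups overlapped.

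EBNA1BP2, NOP16 and RRP1 were the 60S members with wide controls. EBNA1BP2 ran from 15.0 RPKM in control replicate 2 to 43.2 RPKM in control replicate 3, with 21.0 and 29.9 RPKM in knockdown, and its difference went from -0.42 to 0.33 when each library was left out. NOP16 was at 9.93, 4.66 and 11.9 RPKM in control and 6.73 and 10.3 RPKM in knockdown. RRP1 differed by -0.08 (SE 0.26). NOP2, a methyltransferase of 28S ribosomal RNA and the member under the filter, was at 0.372, 1.75 and 0.435 RPKM in control and 0.298 and 0.337 RPKM in knockdown. The reads behind them number 16, 16, 40, 13 and 24, and those of control replicate 2 came from the shallowest library. A protein-coding gene of the same strand, AC006064.6, overlaps the span of NOP2 and had 0 reads in all 5 libraries. How reads in shared exons were counted is not given, so the level of NOP2 is uncertain.

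The abundant nucleolar proteins had a median of -0.21 over 4 genes, which was -0.34 without control replicate 2, -0.036 without control replicate 3 and -0.11 without knockdown replicate 1. NPM1, a histone chaperone that holds the granular nucleolus together, had the highest level of all 40 members, at 422, 330 and 492 RPKM in control and 381 and 457 RPKM in knockdown. Its groups overlapped, at a log2 difference of 0.03 (SE 0.25). NPM1 has 45 named pseudogenes in the table, whose summed reads came to 28.2% of its own in control replicate 2 and to 3.82% to 6.12% in the other 4 libraries, so its level is uncertain. NCL, which binds nascent ribosomal RNA, was at 111, 107 and 136 RPKM in control and 89.2 and 103 RPKM in knockdown, a log2 difference of -0.29 (SE 0.18). DDX21, a helicase that links RNA polymerase I transcription to processing, was at 35.1, 32.3 and 50.7 RPKM in control and 30.1 and 28.5 RPKM in knockdown. Both knockdown libraries lay below all controls for NCL and DDX21, and the DDX21 difference of -0.39 (SE 0.23) was -0.20 without control replicate 3. GNL3 (nucleostemin), a GTPase of proliferating cells, overlapped at -0.12 (SE 0.28).

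By control mean the order was NPM1, FBL, NCL and NHP2, at 414 ± 81.1, 255 ± 53.2, 118 ± 15.9 and 55.7 ± 12.6 RPKM (SD, n = 3 each). The first 3 did not overlap in their control levels, while NOP56 followed at 41.1 ± 7.80 RPKM with levels that overlapped those of NHP2. RNA polymerase I subunits were far scarcer, at 2.55 ± 0.246 RPKM for POLR1C to 13.9 ± 0.296 RPKM for POLR1E.

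The difference varied with gene length. Across the 39 members, which share libraries and depth, Spearman's correlation of the log2 difference was -0.38 with exon length and 0.23 with GC content, and across all 15408 genes it was -0.23 and 0.27. Members longer than their median of 4203 bases had a median of -0.32 (19 genes) and the others -0.14 (20 genes). After the dependence on length and GC was taken out of every library, the median of the members was -0.30 and 35 of 39 were below 0. UTP20 and HEATR1 then stood at -0.66 and -0.61, RRS1 at -0.79 and FBL at 0.54.

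Members that share a sequence feature were compared by their medians only. The 14 tested members with CACGTG in a promoter window had a median of -0.28, from -0.89 to 0.66, and the 19 matched without it -0.21. The 3 members with a miR-19 match, HEATR1, POLR1A and DKC1, were all below 0, with a median of -0.48. Of the other 36, 31 were below 0, with a median of -0.20. With length and GC trends removed, HEATR1, POLR1A and DKC1 stood at -0.61, -0.33 and -0.36, against a median of -0.30 for all members. The part of the match in these levels was not tested. Intronic snoRNA genes on the same strand lie within 8 tested members, among them NOP56, NOP58, NCL, DKC1 and GNL3, which had a median of -0.28 against -0.21 for the other 31. Genes on the opposite strand overlap 20 of the 39 members by their whole spans, introns included. For POLR1E and RRP12 the only such gene had 0 reads in all 5 libraries. Without stated strand in counting, reads in exons that a pair shares cannot be told apart. The 19 members free of such overlap had a median of -0.35 against -0.16 for the 20 with it.

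Other genes of the pathway had a median closer to 0, a difference that was not tested. Of 124 further genes of the same roles and of the RNA exosome, 123 were tested, 87 were below 0 (70.7%) and the median was -0.12. That median was -0.23 without control replicate 2, -0.18 without knockdown replicate 3 and -0.030 without control replicate 3. In limma, at an unadjusted p under 0.05, 7 were lower (5.69%, against 2.54% of all genes) and 0 higher, and 0 passed at an adjusted p under 0.05. URB2, a 60S factor, was at 3.78, 5.22 and 4.10 RPKM in control and 2.40 and 1.68 RPKM in knockdown, a log2 difference of -0.94 (SE 0.23). WDR3, a processome protein, and TAF1A, a subunit of the promoter factor SL1, differed by -0.58 (SE 0.18) and -0.64 (SE 0.24). In the other direction, NOP53, a 60S factor, was at 0.71 (SE 0.43) and POLR1D, a subunit shared by RNA polymerases I and III, at 0.35 (SE 0.16). By role, 38 of 49 60S genes, 24 of 34 processome genes and 10 of 14 exosome genes were below 0, against 4 of 9 further RNA polymerase I genes and 3 of 7 box C/D genes.

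Levels of the MYC family, regulators of this pathway, were as follows. MYC was at 9.75 to 13.5 RPKM in control and 14.8 and 12.9 RPKM in knockdown, and its partner MAX at 3.70 to 4.17 and 3.96 to 5.04 RPKM. MYCN was at 4.93 to 6.49 RPKM in control and 2.89 and 2.35 RPKM in knockdown, a knockdown mean of 0.455 times the control mean (limma unadjusted p = 0.00291, adjusted p = 0.71), and MXD1, an antagonist, at 3.16 to 4.63 and 3.80 to 4.44 RPKM. Their part in the levels of the members was not tested.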

How the data were processed

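The authors deposited 1 value per gene and library as RPKM, per the labels' description field. HISAT2 and GRCh38 are named in the submitters' processing notes, and no source used here gives the counter, annotation or strand setting. All 58676 gene IDs were found in GENCODE release 29. RPKM times exon length gave whole reads for 100% of values above 0 (tolerance 0.002) in the 5 libraries used, and 0.437% in knockdown replicate 2, which was left out. The test was limma 3.58.1 (R 4.3.3), with a trended prior variance, on log2(RPKM + 0.5) for the 15408 genes that reached 0.5 RPKM in any 3 libraries, two-sided, Benjamini-Hochberg adjusted over all of them. Fold changes on this scale understate changes of low genes. Alternatives were other pseudocounts, filters and scalings, no trend, voom, removal of length and GC trends, a replicate block and leaving out each library. Each was recomputed on the whole table. All 40 members are named, and of the wider lists the genes of lowest or highest moderated statistic. Members and lists were chosen with earlier results of these data known. The code was tested on simulated data.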

Additional observations from a re-analysis of the deposited data

How the results depend on the processing

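The median of the members stayed below 0 under all 17 alternatives run on the 5 libraries, from -0.37 to -0.13 when each library was left out and from -0.37 to -0.24 under the 12 others. Between 27 and 37 of 39 members were below 0, or 35 of 40 without a filter. Members lower at an unadjusted p under 0.05 in limma numbered 1 to 11 when each library was left out, 11 with median ratio or trimmed mean scaling, without a filter or with voom with or without weights, and 12 with length and GC trends removed. The share of all genes lower moved too, from 2.54% to between 0.437% and 4.02% when each library was left out, 3.58% and 3.47% with those scalings, 1.39% without a filter, 5.74% and 6.05% with voom and 4.61% with trends removed. No member passed at an adjusted p under 0.05 in any of these. Over all genes, 0 were called except 4 by voom with sample weights and 40 with the replicate block. Numbers 1 and 3 are all that the groups share. Same-numbered libraries correlated at -0.17 and 0.02 in their deviations. With 2 knockdown libraries, the deviation of one is the mirror of the other, so these values cannot tell whether the numbers pair libraries. The block leaves 1 residual degree of freedom. Adding knockdown replicate 2 as deposited, 0 genes were called. Differences near 0 changed sign: NHP2 0.0015 and PES1 0.0031 with trimmed mean scaling, PES1 0.020 and NPM1 -0.10 with quantiles, NOB1 -0.034, NOP16 -0.11 and WDR12 0.010 with trends removed, NOP16 -0.37, NPM1 -0.12 and POLR1C -0.046 with the block, POLR1C -0.023 and NOP16 -0.17 with voom, and NOP16 -0.18 with weights. Leaving out a library changed the sign of 13 members, over -0.21 to 0.081 for BOP1, -0.42 to 0.33 for EBNA1BP2, -0.33 to 0.11 for GNL3, -0.23 to 0.20 for NHP2, -0.22 to 0.11 for NOP14, -0.37 to 0.30 for NOP16, -0.30 to 0.057 for NOP58, -0.12 to 0.16 for NPM1, -0.18 to 0.15 for PES1, -0.14 to 0.16 for POLR1C, -0.30 to 0.071 for RRP1, -0.48 to 0.019 for RRP9 and -0.14 to 0.010 for UBTF. The cause of these changes was not tested. Depth limits control replicate 2 most.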
